A study of Mus musculus with 6 samples.

Results

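The nuclear genes of respiratory complexes III and IV and of the ATP synthase (complex V) were examined in mouse bone marrow-derived macrophages (BMDMs) with and without zoledronic acid (ZA), a nitrogen-containing bisphosphonate given against bone resorption. Members were the rows of the deposited expression table whose symbol begins with Uqcr, with Cox and a digit from 4 to 8, with Atp5, or is Atpaf1 or Atpaf2, pseudogene symbols excepted. This gave 45 of 35434 rows: 8 for complex III, 18 for complex IV, 17 for complex V subunits and 2 for complex V assembly, which are given separately. Of these, 42 had a value above 0 in at least 1 library and 39 had a mean FPKM (fragments scaled by the length of the gene and by the total of the library) of at least 1 and were tested. Cox7b2, Cox8b and Cox8c were listed at 0 in all libraries, and Cox4i2, Cox6a2 and Cox6b2 had values below the filter.

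The cells came from femurs of C57BL/6 mice and were grown for 7 days in M-CSF at 10 ng per ml. The Ctrl group held 3 libraries from BMDMs left without ZA. The ZA group held 3 libraries from BMDMs exposed to ZA for 12 h, at a concentration that is not given for the libraries in the sources used here. The study's wild-type C57BL/6 mice were females 6 weeks old. Whether the 3 libraries of a group came from separate animals was not given, so p-values measure the spread between these libraries, which may be technical. All 8 macrophage markers were present, with a summed FPKM of 23600 to 27500 in Ctrl and 24500 to 28000 in ZA, and 3 of the 8 had an unadjusted limma p under 0.05, all higher in ZA. Most of the sum was Lyz2, at 20500 to 24400 in Ctrl and 21300 to 24700 in ZA. Adgre1 gave 526 to 538 in Ctrl and 567 to 593 in ZA, and Csf1r 767 to 777 and 825 to 848, each without overlap. Markers of neutrophils and myeloid progenitors summed to 34.6 to 49.7 in Ctrl and 30.8 to 35.9 in ZA (9 markers, Ly6g at 0, 4 lower at an unadjusted p under 0.05). Stromal markers summed to 18.3 to 32.8 and 16.6 to 23.6 (6 markers, 1 lower), and osteoclast markers to 40.3 to 46.9 and 38.6 to 42.5 (6 markers, 1 lower). Dendritic, lymphocyte and erythroid markers each summed to at most 2.63, with no marker at an unadjusted p under 0.05 among those that passed the filter. The part of these cells in the values below was not tested. In bulk RNA, fewer cells of a type and less RNA per cell cannot be told apart.

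Complex III passes electrons from ubiquinol to cytochrome c, complex IV passes them from cytochrome c to oxygen, and both pump protons across the inner mitochondrial membrane. The ATP synthase lets protons flow back through a ring of c subunits and uses the rotation to make ATP. Each of these enzymes is built from subunits encoded in the nucleus together with a few encoded by mitochondrial DNA, and several nuclear subunits of complex IV exist in a form used by most tissues and a form typical of heart, skeletal muscle, lung or testis.

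The 3 subunit c genes show how one protein can be read from separate messages. The last 78 codons of Atp5g1, Atp5g2 and Atp5g3 encode the same residues, while the leader peptides before them differ. Their first 90 bases are given from GENCODE vM21, with capitals at the 26 positions where the genes are not all alike, since it is these bases that let a read be assigned to one of the genes.
Atp5g1: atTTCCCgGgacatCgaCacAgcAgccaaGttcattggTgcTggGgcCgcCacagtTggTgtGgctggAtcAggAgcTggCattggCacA
Atp5g2: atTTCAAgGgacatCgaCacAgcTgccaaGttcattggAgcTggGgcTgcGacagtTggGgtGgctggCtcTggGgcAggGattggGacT
Atp5g3: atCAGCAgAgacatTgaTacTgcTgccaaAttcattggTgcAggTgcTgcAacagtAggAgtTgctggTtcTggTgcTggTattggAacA
Over all 234 bases of the shared codons, 84.6% were equal between Atp5g1 and Atp5g2, 78.6% between Atp5g1 and Atp5g3 and 77.4% between Atp5g2 and Atp5g3. The longest stretch equal between any pair was 20 bases, far below the read length of 150 bases. Reads of these genes can therefore be separated from each other within the coding stretch, although not always from other genomic copies, as given with the values of Atp5g2.

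Promoter sequence was available for 35 of the 45 members (RefSeq, GRCm38.p6, 250 bases before to 50 after the start of the gene). It was not used for Uqcrc2, Uqcrb, Uqcrq, Cox4i1, Cox6c, Cox4i2, Cox6a2, Cox8c, Atp5a1 and Atp5mpl. A sequence of GCGCA and GCGC with any 1 base between them, bound by nuclear respiratory factor 1, which is known as a regulator of respiratory chain genes, was found on either strand in 7 of the 35 promoters (20%), against 4.78% of 27025 promoters of all genes. The ETS sequence CCGGAAG, which NRF2 (GABP) can bind, was found in 10 (28.6% against 9.12%), and AANATGGC, bound by YY1, in 5 (14.3% against 6.23%). CCAAT was found in 20 (57.1% against 37.9%) and TATAAA in 4 (11.4% against 14.2%). Such matches are descriptions of sequence, not sites of binding, and matches of different motifs were counted separately and may overlap. The promoters of all genes were taken whether or not the gene was expressed here, with the first listed start of each gene. Whether the shares differ among genes of like level was not tested. The upstream matches to the NRF1 sequence are shown in capitals with 10 bases on each side, 5′ to 3′ on the strand of the gene. They give a feature of some members, which was not used to choose them.
Cox6a1, chr5:115349101-115349130, minus strand: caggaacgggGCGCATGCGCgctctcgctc
Cox6a1, chr5:115349056-115349085, minus strand: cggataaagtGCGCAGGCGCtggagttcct
Atp5g2, chr15:102671070-102671099, minus strand: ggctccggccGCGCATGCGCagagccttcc
Atp5h, chr11:115420041-115420070, minus strand: gaccccgacgGCGCAGGCGCcgcgcccgcc
Atp5k, chr5:108434430-108434459, minus strand: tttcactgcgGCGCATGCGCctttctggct
The other holders were Uqcrc1, Atp5g3 and Atp5o, whose matches lie after the start. Of the 7 holders, Atp5g2 was the 1 with an unadjusted p under 0.05 between Ctrl and ZA, where 12.3% of all genes had one.

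The common subunits were among the well-expressed genes of these macrophages, and most differed little between Ctrl and ZA. Mean FPKM ran from 28.5 to 179 for complex III, from 2.13 to 398 for the tested genes of complex IV, from 30.4 to 256 for complex V subunits and from 3.98 to 6.44 for the assembly factors. FPKM is scaled by 1 length per gene, for example 1525 bases for Uqcrq and 497 for Uqcr10. That length may differ from the length of the message expressed, so comparisons of level between genes are approximate.

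**Figure D1:**
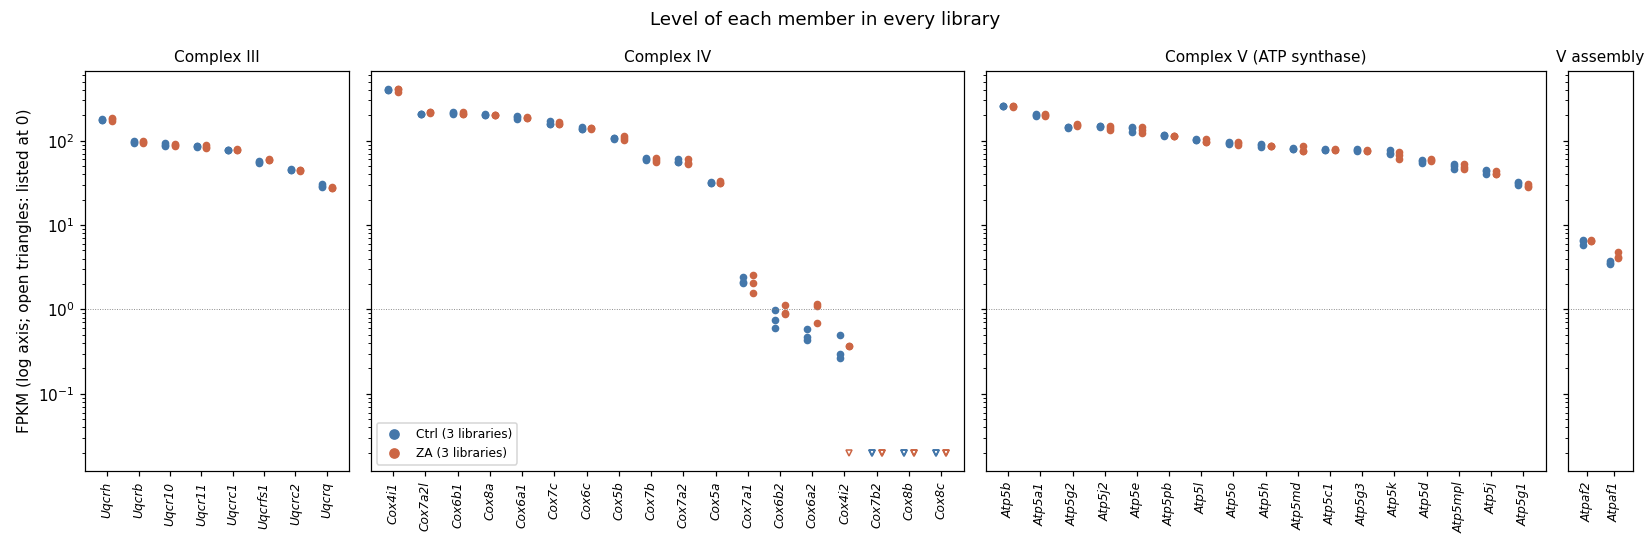
Level of each of the 45 members in FPKM on a log axis, by complex, with genes in order of mean level. Each point is 1 library (blue, Ctrl; orange, ZA), open triangles mark values listed at 0, and the dotted line is the filter of 1 FPKM; the mean levels of the common subunits lie between 28.5 and 398, the tissue forms of complex IV at or below 2.58.

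No member had an adjusted p under 0.05 from limma with Benjamini-Hochberg adjustment over 9800 genes, where 36 genes (0.367%) had one. At an unadjusted p under 0.05 there were 4 members, all higher in ZA: Atpaf1, Uqcrfs1, Cox7a2l and Atp5g2. That is 4 of 39 against a background of 7.50% of all genes higher at this p, and 0 of 39 lower against 4.85%. Among the 39 tested members the groups did not overlap for 5, these 4 and Atp5pb, against 18.1% of all genes. By direction alone 9 members were higher and 30 lower in ZA, while 43.1% of all genes were lower. The median log2 fold change on the scale of log2(FPKM + 1) was -0.012 for the members and 0.010 for all genes. After each library was centred on its median, 7 members were higher and 32 lower, with 4 higher and 3 lower at an unadjusted p under 0.05. Of all 9800 genes, 4740 were then higher and 5060 lower, with 508 higher and 664 lower at this p. With quantile normalization the counts of members were 9 and 30, and 4 and 1. Those of all genes were 4948 and 4852, and 574 and 589. With voom on the recovered fragments 0 members passed the adjusted threshold, and 4 were higher at an unadjusted p under 0.05, as were 815 of all 9800 genes. The count of members lower at an unadjusted p under 0.05 also depended on single libraries: it was 4 without ZA replicate 2, 3 without Ctrl replicate 1 and 1 without Ctrl replicate 3 or without ZA replicate 3. The shares of all genes at this p in these fits are not given here, so these counts have no background. The count of 36 genes over the whole table became 0 to 25 when 1 library was left out.

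The intervals of the members were narrow. The median width of the 95% interval to either side was 0.0755 on the log2 scale for the members and 0.0994 for all genes, with a median of 3010.5 fragments per library for the members and 1395 for all genes tested. For 35 of 39 members (89.7%) the whole interval lay within 0.2 of 0 on the log2 scale, compared with 77.2% of all genes. The other 4 were Cox7a1, Atp5e, Atp5k and Atpaf1. The median absolute log2 fold change was 0.025 for the members and 0.041 for all genes.

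**Figure D2:**
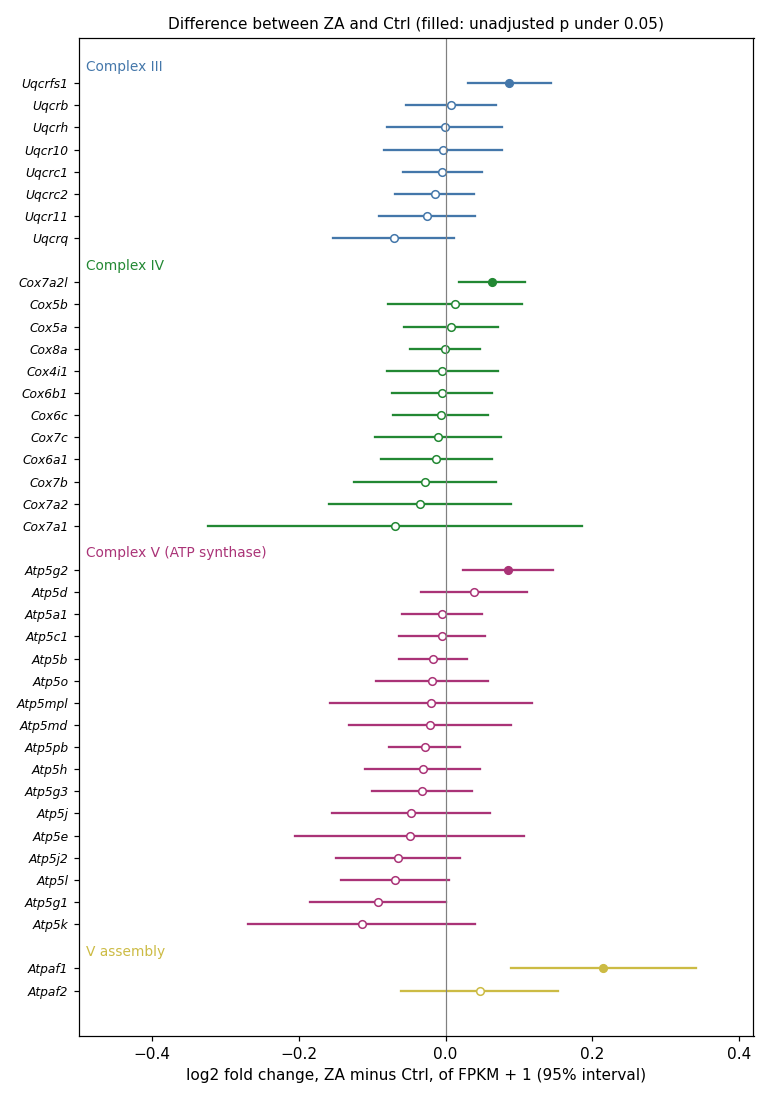
Difference of each tested member between ZA and Ctrl as log2 fold change of FPKM + 1 (horizontal axis), with its 95% interval from limma, 3 libraries in each group. Filled points have an unadjusted p under 0.05; the 4 filled points, Uqcrfs1, Cox7a2l, Atp5g2 and Atpaf1, lie to the right of 0, and 15 of 17 complex V subunits lie to the left.

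All 8 genes of complex III were tested, with 2 higher and 6 lower in ZA and a median log2 fold change of -0.0042. Uqcrfs1, the Rieske iron-sulfur protein, which takes an electron from ubiquinol and hands it to cytochrome c1, measured 55.2, 54.6 and 56.7 FPKM in Ctrl and 58.6, 58.6 and 59.9 in ZA. Each ZA library was above each Ctrl library. The log2 fold change was 0.087 (SE 0.025, 95% interval 0.030 to 0.14, adjusted p = 0.22), from a mean of 55.5 ± 1.06 to 59.0 ± 0.751 FPKM (SD, n = 3 per group). Uqcrq, a small subunit beside cytochrome b, gave 28.8, 30.7 and 28.3 FPKM in Ctrl and 27.3, 27.8 and 28.4 in ZA. The groups overlapped, since ZA replicate 3 lay above Ctrl replicate 3 (log2 fold change -0.07, SE 0.036, adjusted p = 0.47). Uqcr11, another small subunit, gave 87.2, 86.8 and 84.4 FPKM in Ctrl and 83.3, 87.7 and 83.0 in ZA, and ZA replicate 2 was the highest of the 6 libraries. The core proteins Uqcrc1 and Uqcrc2 had log2 fold changes of -0.0046 and -0.015. Uqcrh, the acidic hinge protein that contacts cytochrome c1, was the most abundant gene of the complex, with 177, 182 and 177 FPKM in Ctrl and 169, 184 and 182 in ZA. The ZA libraries held both the lowest and the highest value of Uqcrh. Uqcrb and Uqcr10 had log2 fold changes of 0.0075 and -0.0038, so that outside Uqcrfs1 and Uqcrq no gene of complex III was farther from 0 than Uqcr11, at -0.025.

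Partner genes outside the symbol rule were read from fixed lists. Cyc1, which encodes cytochrome c1, gave 32.0, 34.0 and 30.5 FPKM in Ctrl and 32.7, 33.9 and 33.6 in ZA (log2 fold change 0.054, SE 0.040, adjusted p = 0.62). Cycs, the cytochrome c of somatic cells, had a log2 fold change of -0.0057. Of 8 complex III assembly genes tested, 6 were higher and 2 lower, and 1 had an unadjusted p under 0.05. This was Uqcc5, a complex III assembly factor, at 6.37, 5.98 and 5.87 FPKM in Ctrl and 7.13, 7.07 and 7.06 in ZA, with no overlap between the groups (log2 fold change 0.19, SE 0.039, adjusted p = 0.095). Bcs1l, the chaperone that inserts the Rieske protein into complex III, measured 4.31, 4.35 and 4.38 FPKM in Ctrl and 4.80, 4.02 and 4.44 in ZA, and its groups overlapped.

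Complex IV had 12 tested genes, 3 higher and 9 lower in ZA, with a median log2 fold change of -0.0059. Cox7a2l has been described as taking part in joining complexes III and IV into supercomplexes. Whether its protein does so in the mouse strain used here was not tested, and the values below are of its message only. Cox7a2l measured 207, 207 and 208 FPKM in Ctrl and 214, 218 and 218 in ZA. The Ctrl libraries lay close together and below each ZA library. The log2 fold change was 0.063 (SE 0.020, 95% interval 0.018 to 0.11, adjusted p = 0.26), with a mean FPKM 4.49% higher. Its unadjusted p was under 0.05 in each alternative except the fit without a variance trend. Of the 150-base stretches of Cox7a2l, 4.36% occur in a copy elsewhere in the genome that was not analysed here.

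The 10 ubiquitous subunits of complex IV stayed between -0.035 and 0.013 on the log2 scale, with 2 higher and 8 lower and none at an unadjusted p under 0.05. Cox4i1, the regulatory subunit that can bind ATP, was the most abundant of all members, with 395, 394 and 407 FPKM in Ctrl and 378, 409.9 and 405 in ZA. Its log2 fold change was -0.0043, with a 95% interval from -0.080 to 0.071. Cox7b gave 59.3, 62.2 and 60.4 FPKM in Ctrl and 55.9, 62.9 and 59.6 in ZA. Cox7a2 gave 56.5, 60.5 and 55.4 in Ctrl and 53.1, 60.9 and 54.5 in ZA. In both genes, which encode small subunits around the catalytic core, ZA replicate 1 was the lowest and ZA replicate 2 the highest of the 6 libraries. Without ZA replicate 1, the log2 fold changes of Cox7b and Cox7a2 turned from -0.028 and -0.035 to 0.015 and 0.0041.

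The isoforms of complex IV were almost entirely the ubiquitous ones. Cox4i2, the form known from lung, gave 0.495, 0.265 and 0.296 FPKM in Ctrl and 0.367, 0.364 and 0 in ZA, against which Cox4i1 had a mean 1340-fold higher. At the length of Cox4i2, 3 fragments correspond to 0.0979 FPKM. Cox7a1, the heart and muscle form, gave 2.03, 2.41 and 2.13 FPKM in Ctrl and 2.06, 1.57 and 2.58 in ZA, or 2.51% to 4.52% of the summed Cox7a1 and Cox7a2 FPKM. It was the one tissue form that passed the filter, and its interval, from -0.32 to 0.19, was the widest of all members. Cox6b2, the testis form, gave 0.990, 0.595 and 0.751 FPKM in Ctrl and 0.881, 0.913 and 1.14 in ZA. Its share of Cox6b1 and Cox6b2 together was 0.282% to 0.540%. The sums of each isoform pair did not separate the groups: that of Cox6a1 and Cox6a2 ran from 179 to 196 FPKM in Ctrl and from 186 to 189.5 in ZA (exact permutation p = 0.90, two-sided).

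Cox6a2, the heart and skeletal muscle form of subunit 6a, was low but separated the groups. It gave 0.583, 0.438 and 0.472 FPKM in Ctrl and 0.699, 1.09 and 1.15 in ZA, from at most 32 fragments in a library. The mean went from 0.498 ± 0.0756 to 0.982 ± 0.247 FPKM (SD, n = 3 per group), or from 0.265% ± 0.0529 to 0.524% ± 0.132 of the summed Cox6a FPKM (exact permutation p = 0.10, two-sided, the smallest that 3 against 3 libraries allow). Without the filter on low values, limma gave Cox6a2 a log2 fold change of 0.40 (SE 0.10, adjusted p = 0.35), with an unadjusted p under 0.05. At this size the design cannot reach a p under 0.05 by permutation. Of 7 muscle markers, Myh6, Myh7, Tnnt2 and Mb were at 0 in all libraries. The 7 summed to 0.0152 to 0.0153 FPKM in Ctrl and 0.0153 to 0.108 in ZA. Ckm and Myl2 had values above 0 in ZA replicates 1 and 3 only, and their part in the difference of Cox6a2 was not tested. Cox7b2, Cox8b and Cox8c were listed at 0, so that Cox7b and Cox8a made up all of their families.

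Of 25 genes for complex IV assembly that were tested, 16 were higher and 9 lower in ZA, and 2 had an unadjusted p under 0.05. Surf1, whose loss causes complex IV deficiency, measured 26.6 ± 0.637 FPKM in Ctrl and 28.0 ± 0.184 in ZA (SD, n = 3 per group, log2 fold change 0.072, adjusted p = 0.35). Coa8, which is needed for complex IV assembly under oxidative stress, gave 6.66, 6.63 and 6.91 FPKM in Ctrl and 7.25, 7.72 and 6.997 in ZA (log2 fold change 0.11, adjusted p = 0.37). Neither passed the adjusted threshold. Lrpprc, which stabilises mitochondrial messenger RNA, gave 11.4, 11.2 and 12.1 FPKM in Ctrl and 12.3, 12.3 and 12.2 in ZA, without overlap (adjusted p = 0.42). Ndufa4, a subunit of complex IV despite its name, gave 148, 151 and 138 FPKM in Ctrl and 139.9, 156 and 146 in ZA (log2 fold change 0.014).

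The 17 subunits of the ATP synthase were 2 higher and 15 lower in ZA, with a median log2 fold change of -0.029. This split was the same after centring, quantile normalization and with voom. The F1 head and central stalk, where ATP is made, had a median log2 fold change of -0.0049. Atp5b, the catalytic beta subunit and the most abundant of the complex, gave 257, 261 and 256 FPKM in Ctrl and 252, 255 and 258 in ZA (log2 fold change -0.017, SE 0.020). The alpha subunit Atp5a1 and the gamma subunit Atp5c1 each had a log2 fold change of -0.0049. The delta subunit Atp5d had one of 0.039, and the epsilon subunit Atp5e one of -0.049 with an interval from -0.21 to 0.11.

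The subunit c genes, which supply the rotating ring, differed in direction. Atp5g2, the most abundant of them, gave 147, 145 and 142 FPKM in Ctrl and 153, 159 and 149.9 in ZA. Each ZA library was above each Ctrl library (log2 fold change 0.085, SE 0.027, 95% interval 0.024 to 0.15, adjusted p = 0.26). Atp5g1 gave 30.2, 32.4 and 31.5 FPKM in Ctrl and 29.4, 28.0 and 30.7 in ZA, with ZA replicate 3 above Ctrl replicate 1 (log2 fold change -0.092, SE 0.040, adjusted p = 0.41). Atp5g3 gave 77.5, 75.4 and 79.5 FPKM in Ctrl and 74.4, 78.1 and 74.6 in ZA, and its groups overlapped. As a share of the summed FPKM of the 3 genes, Atp5g2 made up 57.7%, 57.4% and 56.2% in Ctrl and 59.5%, 59.9% and 58.7% in ZA. These shares did not overlap, with means of 57.1% ± 0.786 and 59.4% ± 0.599 (SD, n = 3 per group, exact permutation p = 0.10, two-sided, the smallest possible). The share of Atp5g3 went from 30.5% ± 0.770 to 29.3% ± 0.241 (exact permutation p = 0.10) and that of Atp5g1 from 12.4% ± 0.487 to 11.4% ± 0.723 (exact permutation p = 0.20). The sum of all 3 was 254.6, 252.9 and 253.5 FPKM in Ctrl and 256.4, 264.7 and 255.2 in ZA, also without overlap (exact permutation p = 0.10, two-sided).

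**Figure D3:**
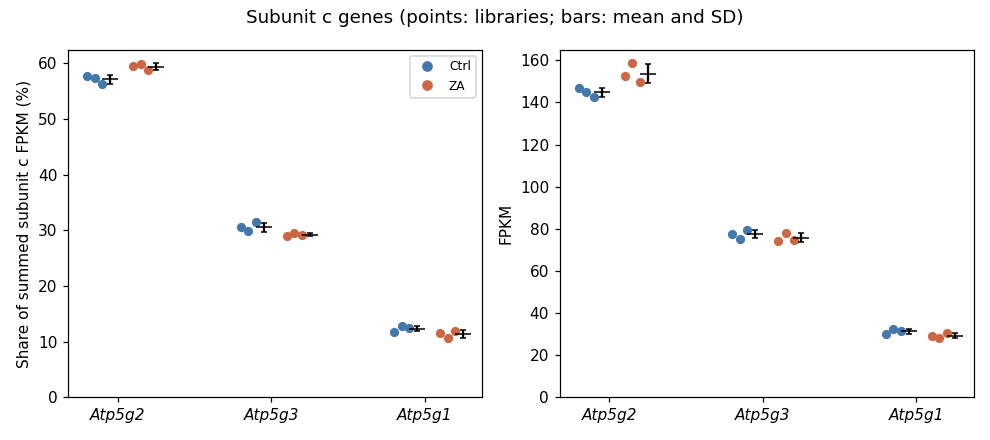
Share of each subunit c gene in the summed FPKM of the 3 genes (left, percent) and its FPKM (right), with points for libraries (blue, Ctrl; orange, ZA) and bars for the mean and SD of 3 libraries. The share of Atp5g2 lies between 56.2% and 57.7% in Ctrl and between 58.7% and 59.9% in ZA, while the genes below it overlap in FPKM.

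Atp5g2 was also the member with the largest share of its sequence in common with other genes. Its distinct 150-base stretches were pooled over all its GENCODE transcripts. Of these 1500, 496 (33.1%) occur in transcripts of copies that were not analysed here, against 4.92% for Atp5g1. The length behind its FPKM was 647 bases, so the share of the counted message may be larger. How the authors' counting placed reads from such stretches is not given in the sources used here. How far the level of Atp5g2 is affected is therefore not known. The 150 bases before its start (GRCm38.p6, chr15:102671048-102671197, minus strand) are shown with the NRF1 sequence in capitals, 5′ to 3′, because Atp5g2 was the one member that held this sequence and had an unadjusted p under 0.05. Among all genes, 12.3% had such a p. In the same stretch Uqcrfs1, Cox7a2l and Atpaf1 held none of the sequences counted. A link between the NRF1 sequence and the difference with ZA was not tested.
The bases just after this RefSeq start were not found in a GENCODE vM21 transcript of the gene, so the start was not checked there.
Atp5g2 promoter: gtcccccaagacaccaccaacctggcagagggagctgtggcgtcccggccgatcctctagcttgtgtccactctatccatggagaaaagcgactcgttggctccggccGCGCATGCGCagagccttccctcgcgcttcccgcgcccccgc

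The peripheral stalk, which holds the head still while the ring turns, was lower in ZA in 4 of 4 genes, without any at an unadjusted p under 0.05. Atp5pb, the b subunit, gave 117.7, 116.4 and 115.1 FPKM in Ctrl and 114.1, 113.2 and 114.9 in ZA. Its groups did not overlap, although the log2 fold change was only -0.029 (SE 0.021, adjusted p = 0.61). Atp5h, Atp5j and Atp5o, which encode subunits d, F6 and OSCP, had log2 fold changes of -0.031, -0.047 and -0.018 with overlapping groups. Atp5o shares 6.05% of its stretches with transcripts of Donson, whose mean FPKM was 3.11% of that of Atp5o.

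The small membrane subunits, which sit beside the ring and help join ATP synthases into dimers, were lower in ZA in 5 of 5 genes, with a median log2 fold change of -0.065, against -0.029 for all 17 subunits of the complex. None had an unadjusted p under 0.05 as deposited, and after centring 1 had, Atp5l, where 664 of 9800 genes were lower at this p. Atp5l, subunit g, gave 102, 105 and 103 FPKM in Ctrl and 95.8, 103 and 96.6 in ZA (log2 fold change -0.069, SE 0.032, adjusted p = 0.44). Atp5k, subunit e, named here for the lowest log2 fold change of all members, gave 70.0, 77.3 and 71.3 FPKM in Ctrl and 60.6, 73.7 and 67.9 in ZA (log2 fold change -0.11, SE 0.067, 95% interval -0.27 to 0.040, adjusted p = 0.53). Atp5j2, subunit f, gave 144, 149.7 and 148 FPKM in Ctrl and 133, 148 and 142 in ZA.
In each of the 3 genes ZA replicate 2 was the highest ZA library and lay within the range of the Ctrl libraries, while ZA replicates 1 and 3 lay below all of them. Without ZA replicate 2, Atp5j2, Atp5k, Atp5l and Atp5md were lower at an unadjusted p under 0.05. Their log2 fold changes were -0.10, -0.18, -0.10 and -0.082, with adjusted p between 0.27 and 0.41 from limma. As it was the highest ZA library in these genes, leaving it out lowers the ZA mean by construction and is no further support for a difference. In that fit 0 genes of the whole table had an adjusted p under 0.05, and the share of all genes lower at the unadjusted p is not given here. Atp5mpl had a log2 fold change of -0.020 with all libraries.

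The assembly factors of complex V were both higher in ZA by direction, with a median log2 fold change of 0.13. Atpaf1, the chaperone that binds free beta subunits, gave 3.49, 3.77 and 3.57 FPKM in Ctrl and 4.75, 4.23 and 4.09 in ZA. Each ZA library was above each Ctrl library, and the mean was 20.7% higher, with 3.61 ± 0.146 FPKM in Ctrl and 4.36 ± 0.346 in ZA (SD, n = 3 per group, log2 fold change 0.22, SE 0.055, 95% interval 0.089 to 0.34, adjusted p = 0.18). This was the largest log2 fold change of the 39 tested members, and among tested members only Cox7a1 had a lower level. Of its distinct 150-base stretches over all transcripts, 694 of 3703 (18.7%) occur in a copy that was not analysed here. The length behind its FPKM was 1925 bases, so the share of the counted message may be larger. Atpaf2, the chaperone for the alpha subunit, gave 5.85, 6.61 and 6.53 FPKM in Ctrl and 6.63, 6.51 and 6.54 in ZA. The difference rested on Ctrl replicate 1: without it the log2 fold change of Atpaf2 went from 0.046 to -0.0017. Of 4 other genes for complex V assembly, 1 was higher and 3 lower, none at an unadjusted p under 0.05. Fmc1, a partner in assembly of the F1 head, had the largest of these differences, with 4.84, 6.65 and 6.95 FPKM in Ctrl and 4.35, 5.998 and 5.97 in ZA (log2 fold change -0.15, SE 0.14, adjusted p = 0.70).

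The subunits of the same enzymes that are encoded by mitochondrial DNA are set beside the nuclear genes by their counts. Of 6 such genes tested, 6 were lower in ZA and 3 had an adjusted p under 0.05 from limma: CYTB (log2 fold change -0.30, adjusted p = 0.043), COX2 (-0.27, adjusted p = 0.049) and COX3 (-1.11, adjusted p = 0.0045), where 0.367% of all genes had one. CYTB kept an adjusted p under 0.05 in 8 of 15 alternatives, COX2 in 6 and COX3 in 13. Adjusted p over the alternatives ran from 0.00115 to 0.231 for CYTB, from 0.0201 to 0.231 for COX2 and from 7.17e-05 to 0.145 for COX3. CYTB was lost without Ctrl replicate 1, 2 or 3 or ZA replicate 2, COX2 without any 1 library, and COX3 without ZA replicate 2. ATP6 had an unadjusted p under 0.05 with overlapping groups (log2 fold change -0.50, SE 0.20, adjusted p = 0.36). COX1 and ATP8 differed little, with log2 fold changes of -0.033 and -0.020 (adjusted p = 0.69 and 0.97 from limma). Mean FPKM in Ctrl was 7096 for COX1 and 1928 for CYTB. It was 45.85 for COX2, 35.15 for COX3, 25.85 for ATP6 and 3.37 for ATP8. The cause of this spread in level was not tested. No test compared these genes with the nuclear members.

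The members are short, with a median length of 764 bases against 3422.5 for all genes tested, and their values differed between libraries of one group. Over the 39 members, deviations of same-numbered libraries correlated by 0.25, -0.024 and -0.080 for numbers 1, 2 and 3. Among the 23 members under 1000 bases, 18 lay below their group's mean in Ctrl replicate 1 and 18 in ZA replicate 1, but 6 in Ctrl replicate 2 and 4 in ZA replicate 2. Of the 16 longer members, 12 lay below in Ctrl replicate 1 and 13 in ZA replicate 1, and 4 in Ctrl replicate 2, in the same direction as the short members, while in ZA replicate 2 it was 11 of 16. The median deviation of the 23 short members was -0.023, 0.029 and 0.0042 in Ctrl replicates 1, 2 and 3 and -0.031, 0.045 and 0.00060 in ZA replicates 1, 2 and 3. All 606 genes under 1000 bases had medians of -0.0099, 0.0053 and 0.0052 in Ctrl and -0.027, 0.029 and -0.0030 in ZA, in the same order within ZA. The median absolute log2 fold change of the members between Ctrl and ZA, 0.025, was of the size of these deviations between libraries of one group. Over the 39 members, length and log2 fold change had a Spearman correlation of 0.31, which is a description, since the points share the same 6 libraries, and over all genes it was 0.031. The part of length in the differences was not tested.

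**Figure D4:**
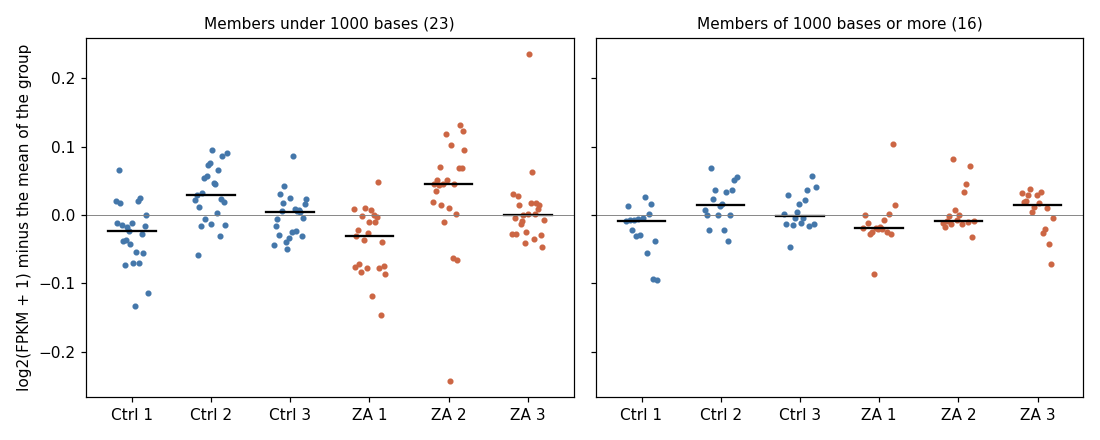
Deviation of each tested member from the mean of its group, in log2(FPKM + 1), in the 6 libraries, for the 23 members under 1000 bases (left) and the 16 longer ones (right); each point is a gene and the bar is the median. Most members of both kinds lie below 0 in Ctrl 1 (18 of 23 and 12 of 16) and ZA 1 (18 of 23 and 13 of 16); in ZA 2, 4 of 23 short and 11 of 16 longer members do.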

How the data were processed

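RNA of 6 BMDM libraries (3 Ctrl, 3 ZA) was sequenced as paired reads of 150 bases. The authors deposited 1 FPKM value per gene and library, with no further scaling between libraries. The genome build is mm9 per the submitters' processing notes; the aligner, counting program and annotation are not given in the sources used here. The paper's methods name a VAHTS kit, and the labels also name a SMARTER kit. In 35423 of 35434 rows symbol and values ran together, and they were restored by requiring whole fragments after undoing the scaling by gene length (20 to 150000 bases tried) and library total. The 11 rows with all separators were restored identically, and 18 rows with a single value above 0 were taken as below 1. Library totals lie between 41230600 and 42155808 fragments, and 3 fragments at the median gene length give 0.0208 to 0.0213 FPKM.

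Values were tested as log2(FPKM + 1), which understates changes of low genes, with limma 3.58.1 in R 4.3.3 (lmFit, eBayes with a trend, two-sided, Benjamini-Hochberg over the 9800 genes that reached a mean FPKM of 1). Members under this filter and isoform shares were compared by exact permutation. The fit was tested on simulated data. The alternatives were a pseudocount of 0.1, no filter or a mean FPKM of 5, centring, quantile normalization, no variance trend, the replicate number as a block, voom on the recovered fragments and leaving out each library. Tables were read with Python 3.11.15, pandas 2.3.3, NumPy 2.4.6 and SciPy 1.17.1, and figures drawn with Matplotlib 3.10.9. Libraries of a group were not duplicates of each other (chi-square per gene of 3.52 to 9.73).

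Members and lists were chosen with earlier results of these data known. Values are given for members with an unadjusted p under 0.05, the 3 with the largest statistic and the most abundant one of each complex, both Atpaf genes, isoforms, and members under the filter. Atp5k, Atp5j2, Atp5pb, Bcs1l, Uqcc3, COX1, ATP8, Sdha, Nrf1 and Ppargc1a were named after their values were seen. Other genes of the lists outside the rule were named where their unadjusted p was under 0.05 or from among the 3 with the largest statistics. Not all of those 3 were named in each list, for example not Tfam and Gabpa, and the rest are given by their counts. Sequences shared with other genes were searched as distinct stretches of 150 bases in GENCODE vM21 (GRCm38), pooled over all transcripts of a gene. Promoters come from RefSeq.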

Additional observations from a re-analysis of the deposited data

How the results depend on the processing

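With 3 libraries per group and unknown origin of the cultures, the members' 95% intervals had a median reach of 0.0755 to either side on the log2 scale. This is not a limit of detection, and larger differences may also have been missed. Atpaf1 at 0.22, Uqcrfs1 at 0.087 and Atp5g2 at 0.085 lay beyond it without an adjusted p under 0.05. Members with an adjusted p under 0.05 numbered 0 in all 15 alternatives, by limma or voom. Of 164 alternative values of 11 named members, 159 kept their direction and side of the threshold. Most of these members were chosen by their statistic in the main fit, and none passed the threshold there. The alternatives also reuse the same libraries, so this count is no independent support. The log2 fold change of Atpaf2 became -0.0017 without Ctrl replicate 1 and -0.0087 with both libraries numbered 1 left out, an alternative chosen after seeing the data. That of Cox7a2 became 0.0022 without Ctrl replicate 2 and 0.0041 without ZA replicate 1, and that of Cox7b 0.015 without ZA replicate 1. Over all fits without a single library they ran from -0.0017 to 0.074 for Atpaf2, from -0.094 to 0.0041 for Cox7a2 and from -0.069 to 0.015 for Cox7b. The genes with an adjusted p under 0.05 over the table numbered 36, but 1 without a filter, 20 with quantile normalization, 1 without a variance trend, 132 with voom, 3 with both libraries numbered 1 left out, and 0 to 25 without single libraries. Members lower at an unadjusted p under 0.05 numbered 0, but 1 with a filter of 5 FPKM, 3 after centring, 1 with quantile normalization, 1 with both libraries numbered 1 left out, and 0 to 4 without single libraries. Of all genes, 475 were lower at this p in the main fit, 664 after centring and 589 with quantile normalization. Their counts in fits without single libraries are not given here. The count of members higher at this p was 3 to 5, with 5 without a filter, where Cox6a2 was added, and Uqcrfs1 and Atp5g2 were among them in all 15 alternatives. The median log2 fold change of the assembly factors, 0.13, was 0.046 with a filter of 5 FPKM, where Atpaf1 was not tested, 0.068 with both libraries numbered 1 left out, and 0.097 to 0.16 without single libraries. The medians without single libraries ran from -0.014 to 0.0040 for complex III, from -0.021 to 0.0089 for complex IV and from -0.055 to -0.015 for complex V. The cause of these changes was not tested, except that the filter removed Atpaf1.

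The main fit did not take the replicate numbers as pairs, and the sample titles do not name pairs. Deviations of same-numbered libraries correlated by 0.284, 0.039 and 0.280 over genes for numbers 1, 2 and 3. Those of differently numbered libraries correlated by -0.2975 to 0.033. The replicate block gave 78 genes with an adjusted p under 0.05, 0 of them members, and at an unadjusted p under 0.05 there were 4 members higher (9.23% of all genes) and 3 lower (6.12% of all genes), namely Atp5j2, Atp5k and Atp5l. Each library correlated best with the library of its own number, with 0.039 against 0.033 as the closest case, as a hint from the data and not from the design. Outside the members, the block brought Fmc1 (lower) and Uqcc3 (higher) to an unadjusted limma p of 0.0069 and 0.0058 (adjusted p = 0.14 and 0.13). Coa8 rose to an unadjusted p of 0.054. ATP6 had an unadjusted p of 0.0022 (adjusted p = 0.078).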

Other observations

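Complex II, which passes electrons from succinate to ubiquinone and has no subunit from mitochondrial DNA, was read from a list of 8 subunit and assembly genes. Of these, 4 were higher and 4 lower in ZA, with 0 at an unadjusted limma p under 0.05 and a median log2 fold change of -0.0021. Sdha, the flavoprotein that oxidises succinate, gave 85.5, 85.9 and 84.5 FPKM in Ctrl and 84.4, 84.0 and 85.8 in ZA. Sdhaf2, which helps attach the flavin to Sdha, was the one gene of the list whose groups did not overlap, with 11.8, 11.79 and 11.52 FPKM in Ctrl and 11.47, 10.72 and 11.47 in ZA (log2 fold change -0.056, SE 0.036, adjusted p = 0.56).

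Of 10 regulators of nuclear respiratory genes, 7 passed the filter, 4 higher and 3 lower in ZA, with 0 at an unadjusted p under 0.05. Nrf1, whose binding sequence was counted in the promoters, gave 1.56, 1.47 and 1.49 FPKM in Ctrl and 1.48, 1.61 and 1.63 in ZA. Pprc1, a coactivator of the PGC-1 family, had the largest difference, from 6.10 ± 0.224 to 5.67 ± 0.198 FPKM (SD, n = 3 per group, adjusted p = 0.44 from limma). Ppargc1a, which encodes PGC-1 alpha, was at most 0.00547 FPKM in any library.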
